A study of Homo sapiens with 4 samples.

Results

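The genes described here encode the eukaryotic translation initiation factors (eIFs), the proteins that bring the small ribosomal subunit and the initiator tRNA to the start codon of an mRNA. They were chosen by name: every protein-coding gene whose symbol starts with EIF and a digit from 1 to 6, the eIF4E-binding proteins included and the EIF2AK kinases left out. The gene annotation holds 52 such genes, and 50 of them were among the 17656 genes of the expression table, so that EIF1AY and EIF4E1B were not analysed here. The rule itself reads only names, but this family was picked for description with earlier results of these data known.

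In initiation, eIF2 carries the initiator methionyl-tRNA to the small subunit as a complex with GTP, and eIF2B recharges eIF2 with GTP after each round. eIF1, eIF1A and eIF5 help the scanning ribosome to find the start codon, while eIF5B joins the large subunit. eIF3 is a large scaffold on the small subunit, and eIF4E, eIF4G and the helicase eIF4A form the cap-binding complex, which the eIF4E-binding proteins hold in check. Phosphorylated eIF2 blocks eIF2B, the step on which the integrated stress response acts, and the genes of many of these factors are known to be expressed at high levels in dividing cells.

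RNA sequencing was carried out in U937, an established human monocytic leukemia cell line, in 2 groups of 2 libraries. The NC libraries are described as untreated U937 cells, and the libraries labelled sh-ZNF217 as U937 cells with knockdown of ZNF217, a zinc finger transcription factor. The study's methods describe both short hairpin RNAs in a lentiviral pLKO.1-puro vector and CRISPR-Cas9 editing of ZNF217 with a nontargeting guide as control. Its results text speaks of control and ZNF217-knockout cells for the RNA sequencing. Its methods instead list the sequenced U937 samples as untreated or with a knockdown, and the labels name a hairpin and a knockdown. The labels of the NC libraries name no vector. Whether libraries of the same group were grown as separate cultures is stated nowhere in the sources used here, and the p-values therefore reflect the spread between these libraries, which may be technical.

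Values are in TPM (transcripts scaled to a fixed total), a level per transcript length that is set to the same total in every library, so that the depth of each library is unknown and no counting interval can be given. The comparison asks which genes differed in level between the libraries labelled sh-ZNF217 and NC. The mRNA of the targeted gene, ZNF217, stood at 36.1 and 36.7 TPM in NC against 35.8 and 35.0 TPM under the sh-ZNF217 label (log2 fold change −0.04, 95% interval −0.22 to 0.14, limma adjusted p = 0.740), so the mRNA level goes against the label of a knockdown, and the groups are named by their labels throughout. A Cas9 edit need not lower the mRNA of its gene, so for a knockout this level would not check the labels. By qRT-PCR and Western blotting, the study reports lower ZNF217 mRNA and protein after hairpin knockdown in its AML cell lines, which included U937. Whether those were the cells sequenced is not stated. Of 10 myelomonocytic marker genes, 9 were at 1 TPM or more in every library, while MPO, a myeloid granule enzyme, was below 1 TPM. Their summed level was 4961 to 5002 TPM in NC and 7388 to 7557 TPM in the libraries labelled sh-ZNF217, most of it LYZ, the gene of lysozyme, at 3270.2 and 3256 TPM in NC against 5511 and 5328 TPM. Of the 9 tested, LYZ, PTPRC, ITGB2 and FCER1G were higher at a limma adjusted p below 0.05, and ELANE, the gene of neutrophil elastase, was lower (log2 fold change −0.79, adjusted p = 0.00863), while the other 4 did not pass. The 37 mitochondrially encoded genes held 9.98 and 10.8% in NC against 12.5 and 12.7% under the sh-ZNF217 label, as a share of all TPM, and the part of either shift in the results below was not tested beyond the values without the mitochondrial genes. In such bulk libraries, fewer cells of a kind and less RNA per cell cannot be told apart.

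More of the initiation factor genes were lower than higher in the libraries labelled sh-ZNF217, by modest margins. Their summed level was 10014 and 10022 TPM in NC against 8961 and 8989 TPM under the sh-ZNF217 label, so that these libraries held 0.896 of the NC level, and the NC and sh-ZNF217 libraries did not overlap. Of the 50 genes, all of which passed the filter on low values (at least 1 TPM in at least 2 libraries), 15 (30%) were lower at a limma adjusted p below 0.05, against 7.11% of the 14582 genes tested. The 15 include EIF3C and EIF3CL, near-identical copies that share reads. In the other direction 0 of 50 were higher at that threshold, against 9.77% of all genes. At an unadjusted p below 0.05, 22 were lower (15.5% of all genes) and 1, EIF4EBP2, was higher (18.9% of all genes).

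The differences were small for single genes. With a further minimum of 0.5 on the log2 scale, 2 of the 50 genes, EIF3C and EIF2B3, were called lower, against 2.46% of all genes, and 0 were called higher, against 6.26%. The log2 fold change was below 0 for 38 of the 50 (76%), against 47.5% of all genes, and their median was −0.14, against 0.02 over all genes. Both libraries labelled sh-ZNF217 lay below both NC libraries for 31 genes (28.6% of all genes did so) and above both for 7 (33.5% of all genes). For the remaining 12 the groups overlapped. With 2 libraries against 2, an exact permutation test of a single value cannot give a two-sided p below 0.333, so the tests rest on limma, which pools the spread over genes.

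The background share depended on which genes were tested. Among protein-coding genes alone, 12% of 10909 genes were lower at adjusted p below 0.05, and 19 of the 50 initiation factor genes (38%) were. Among the genes with at least 5 TPM in at least 2 libraries, 11.1% of 10982 genes and 17 of 49 members were lower. Without the mitochondrially encoded genes, 8 of 50 members were lower, against 5.45% of all genes, and the median member log2 fold change was −0.11.

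**Figure D1:**
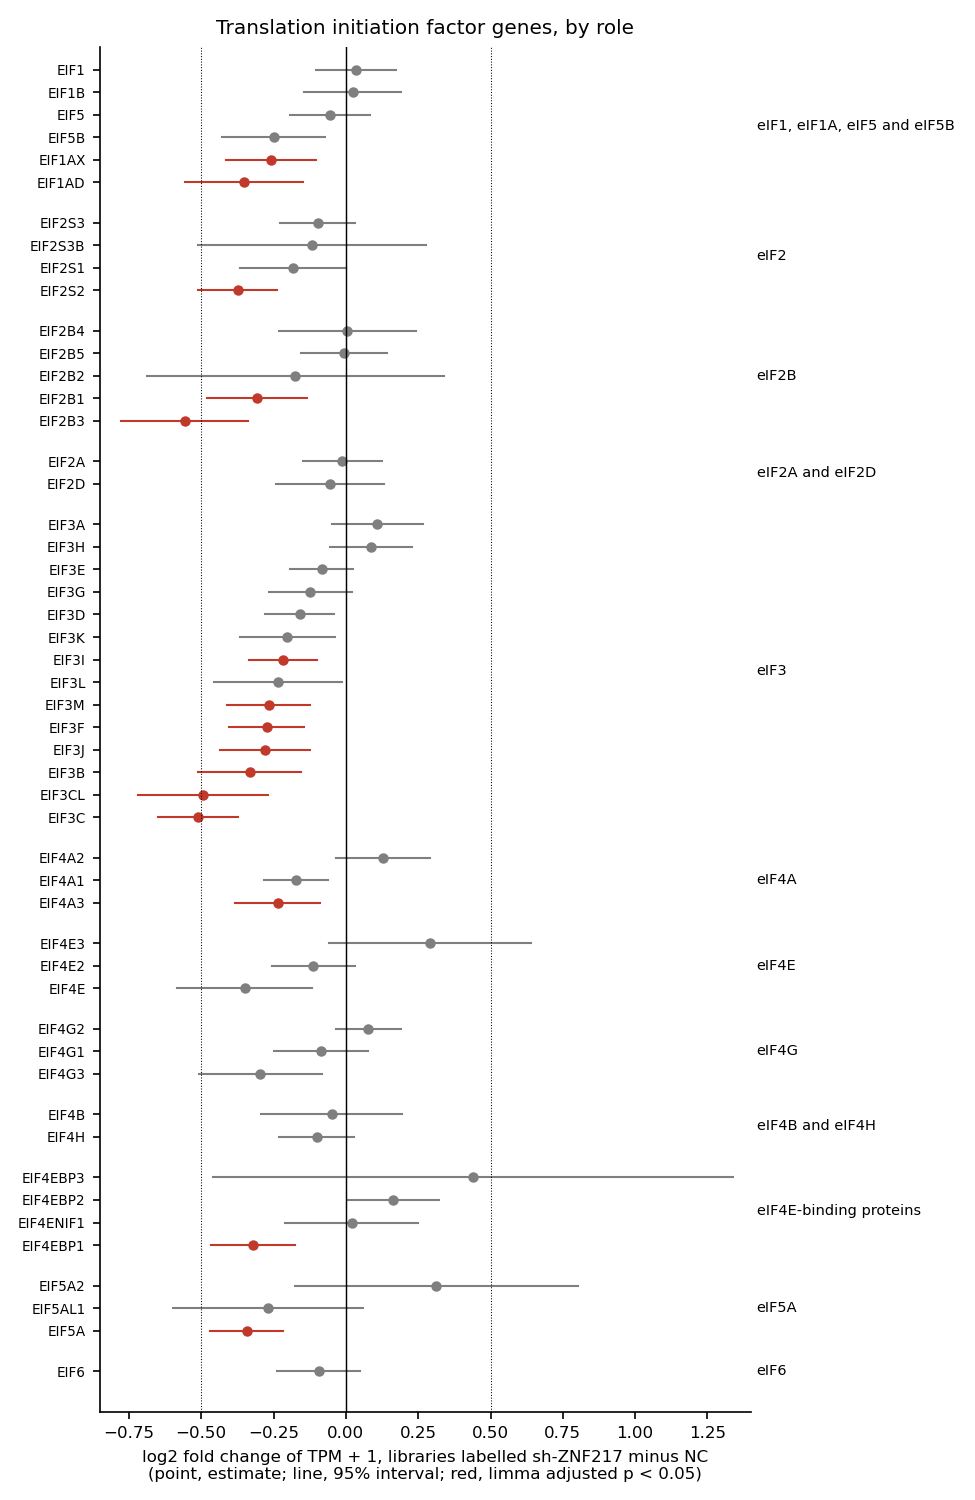
Log2 fold change of TPM + 1 (horizontal axis, libraries labelled sh-ZNF217 minus NC) for the 50 initiation factor genes, grouped by role, with points for estimates and lines for 95% intervals. Red marks the 15 genes with a limma adjusted p below 0.05, all of them left of 0, and the dotted lines mark a log2 fold change of 0.5 in either direction.

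The promoters of these genes were examined for short motifs, since MYC, a transcription factor that binds the E-box CACGTG, was 158 and 150.4 TPM in NC against 80.0 and 88.2 TPM under the sh-ZNF217 label, a fall of 0.87 on the log2 scale (limma adjusted p = 0.00339). RefSeq promoter windows (GRCh38.p14), from 250 bases before to 50 bases after the RefSeq start, were matched for 42 of the 50 genes. Windows were not matched for EIF2S2, EIF3A, EIF3CL, EIF3E, EIF3G, EIF3H, EIF3L and EIF4EBP1. The stretches printed next are those in which an E-box lies in a gene that was lower (EIF2B3, EIF3F and EIF4A3) or occurs more than once in a cap-binding complex gene (EIF4E and EIF4G1), and the EIF3I stretch with a pair of ETS motifs (CCGGAAGT, read as ACTTCCGG on the opposite strand). The motifs are in capitals, and each sequence is written 5′ to 3′ on the strand of its gene.

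EIF2B3, chr1:44986749-44986794, minus strand: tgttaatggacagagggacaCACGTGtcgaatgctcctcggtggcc

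EIF3F, chr11:7987249-7987294, plus strand: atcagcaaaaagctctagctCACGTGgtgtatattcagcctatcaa

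EIF4A3, chr17:80147224-80147269, minus strand: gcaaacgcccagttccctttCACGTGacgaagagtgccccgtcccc

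EIF4E, chr4:98929180-98929378, minus strand: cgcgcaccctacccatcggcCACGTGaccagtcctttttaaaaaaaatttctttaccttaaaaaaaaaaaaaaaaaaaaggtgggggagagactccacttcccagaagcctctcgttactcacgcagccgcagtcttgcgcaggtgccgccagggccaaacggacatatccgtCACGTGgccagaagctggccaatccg

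EIF4G1, chr3:184314442-184314564, plus strand: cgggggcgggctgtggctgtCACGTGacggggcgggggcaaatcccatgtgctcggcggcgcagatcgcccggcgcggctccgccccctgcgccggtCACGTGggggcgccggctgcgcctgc

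EIF3I, chr1:32222322-32222402, plus strand: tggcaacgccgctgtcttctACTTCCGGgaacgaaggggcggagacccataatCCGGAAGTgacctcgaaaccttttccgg

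The E-box starts at base −179 from the RefSeq start in EIF2B3, at −68 in EIF3F and at −121 in EIF4A3, at −225 and −72 in EIF4E, and at −144 and −67 in EIF4G1. EIF5A2, which is outside the cap-binding complex and not printed, also holds a repeated E-box, at −187 and −162. Its log2 fold change was 0.31 and did not pass the test. In EIF3I the ETS motifs start at −65 and −32. Across the windows searched, the E-box CACGTG, which reads the same on both strands, was found in 11 of 42 initiation factor promoters (26.2%), against 7.43% of 27305 promoters and 10.7% of the 8934 promoters of protein-coding genes tested. It was present in 3 of the 12 matched genes that were lower and in 8 of the 30 others. The ETS motif was found in 8 of 42 (19.0%), against 4.44% of all promoters and 9.73% of those of genes tested, with 3 of the 12 and 5 of the 30. The RUNX motif TGTGGT was in 4 of 42 (9.52%), against 13.1% of all promoters and 9.18% of those of genes tested, EIF3C and EIF5A among the 4. The forkhead motif TGTTTAC was in 1, EIF3D (3.41% of all promoters and 2.27% of those of genes tested), and the MEF2 motif (CTA and TAG with 4 free bases between them) in 1, EIF1AX (2.83% and 1.95%). Both strands were read for every motif. These 5 motifs were chosen with the values known and none contains another, and a match describes the letters of a window without showing that a factor binds there.

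Of the 14 genes of eIF3, the scaffold on the small ribosomal subunit, 7 were lower at adjusted p below 0.05 (7.11% of all genes were). Both EIF3C and its near-identical copy EIF3CL are among the 7, and they share reads. The 14 genes had a median log2 fold change of −0.23. Their summed level was 3629.5 and 3766 TPM in NC against 3224 and 3235 TPM under the sh-ZNF217 label. EIF3C (ENSG00000184110, chr16:28688558-28735727, GRCh38, plus strand), which encodes a core subunit that contacts eIF1 and eIF5, was the gene with the smallest adjusted p of all 50. It stood at 189.7 and 195 TPM in NC against 131 and 138 TPM under the sh-ZNF217 label and fell by 30.0%, which is −0.51 ± 0.06 (SE) on the log2 scale (limma adjusted p = 0.00683). Both libraries labelled sh-ZNF217 were well below both NC libraries. Leaving out each library in turn gave adjusted p-values of 0.0145 to 0.0451, so EIF3C alone kept its adjusted p below 0.05 in all 4 cases, while its log2 fold change ran from −0.55 to −0.47 and fell short of the 0.5 minimum without the second NC library (−0.49) or the first library labelled sh-ZNF217 (−0.47).

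EIF3CL, a near-identical copy of EIF3C, stood at 175 and 178 TPM in NC against 136 and 114 TPM under the sh-ZNF217 label (−0.49 ± 0.09 on the log2 scale, limma adjusted p = 0.0230, 0.0391 to 0.0644 with 1 library left out). The 2 copies share reads: of the 100-base windows of their transcripts, 74.9% of those of EIF3C and 95.01% of those of EIF3CL occur in the other. The split of reads between them is therefore uncertain, and their sum had a log2 fold change of −0.50 with a limma adjusted p of 0.00613.

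The other eIF3 genes that fell did so by smaller amounts. EIF3B, the platform of the outer subunits that binds near the mRNA entry channel, stood at 329.6 and 366 TPM in NC against 286 and 265 TPM under the sh-ZNF217 label (log2 fold change −0.33, limma adjusted p = 0.0345, 0.0295 to 0.137 with 1 library left out). EIF3I, a propeller-shaped subunit held by EIF3B, stood at 382 and 389 TPM in NC against 336 and 326 TPM under the sh-ZNF217 label (−0.22, adjusted p = 0.0356, 0.0863 to 0.139 with 1 library left out). In both genes the groups were separate, and the spread within NC was wider for EIF3B. EIF3J, a loosely bound subunit that touches the decoding site, stood at 143 and 143 TPM in NC against 112 and 122 TPM under the sh-ZNF217 label (−0.28, limma adjusted p = 0.0375, 0.0674 to 0.127 with 1 library left out).

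EIF3F and EIF3M, which sit side by side in the core of eIF3, were lower with little spread in either group. EIF3F stood at 190.0 and 187 TPM in NC against 159 and 153 TPM under the sh-ZNF217 label (log2 fold change −0.27, limma adjusted p = 0.0258, 0.0624 to 0.104 with 1 library left out). EIF3M stood at 82.6 and 83.8 TPM in NC against 68.7 and 69.3 TPM under the sh-ZNF217 label (−0.27, limma adjusted p = 0.0344, 0.102 to 0.117 with 1 library left out). Exons of EIF3I, EIF3J and EIF3M overlap genes on the other strand (TMEM234, SPG11 and CCDC73 among them), and no source used here says whether strand was used in counting, so their levels may hold reads of those genes.

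The other 7 genes did not pass the test. EIF3E, the most abundant eIF3 mRNA, stood at 676 and 680.0 TPM in NC against 648 and 632 TPM under the sh-ZNF217 label (log2 fold change −0.08, limma adjusted p = 0.239). EIF3D, a subunit with cap-binding activity of its own, EIF3K, EIF3L and EIF3G had log2 fold changes from −0.24 to −0.12, with both libraries labelled sh-ZNF217 below both NC libraries and adjusted p-values from 0.0736 to 0.198. EIF3A, the largest subunit and the backbone of the complex, stood at 180.1 and 199 TPM in NC against 203 and 205 TPM under the sh-ZNF217 label (0.11, adjusted p = 0.286), and EIF3H at 109.7 and 105 TPM in NC against 114 and 113 TPM under the sh-ZNF217 label (0.09, adjusted p = 0.343). These 2 were the eIF3 genes with both libraries labelled sh-ZNF217 above NC.

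Ratios of subunit levels within a library do not depend on the scaling of that library. The ratio of EIF3C to EIF3A was 1.05 and 0.981 in NC against 0.645 and 0.673 under the sh-ZNF217 label. The ratio of EIF3B to EIF3A was 1.83 and 1.84 in NC against 1.41 and 1.29 under the sh-ZNF217 label, and that of EIF3M to EIF3H was 0.753 and 0.802 in NC against 0.600 and 0.613 under the sh-ZNF217 label. In all 3 the groups were separate by more than the spread within either group. These and the ratios given for other factors were chosen after the values were seen, and no test was run on them.

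**Figure D2:**
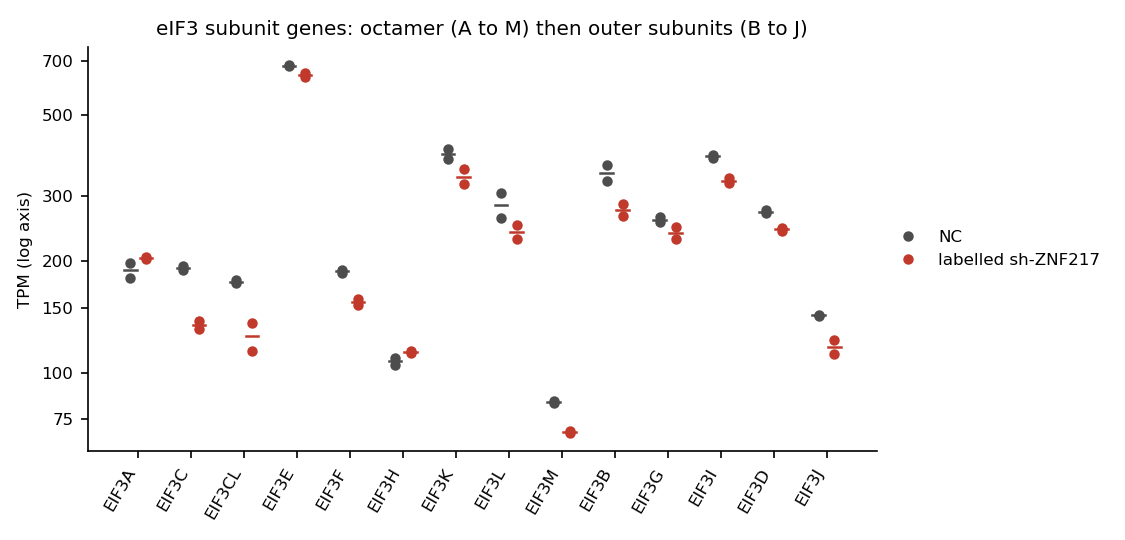
TPM (vertical log axis) of the 14 eIF3 subunit genes in each of the 4 libraries, with short bars at the group means, the octamer core first and the outer subunits after it. The NC and sh-ZNF217 points are farthest apart in EIF3C and EIF3CL, and the order is turned round in EIF3A and EIF3H.

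eIF2 and its exchange factor eIF2B form the step at which stress kinases act on initiation. Of the 4 eIF2 genes, 1 was lower at adjusted p below 0.05, against 7.11% of all genes, a share that 1 gene of so few cannot be read against. EIF2S2, the beta subunit, through which eIF2 meets eIF5 and eIF2B, stood at 165 and 169 TPM in NC against 132 and 126 TPM under the sh-ZNF217 label, or −0.37 ± 0.06 in log2 units (limma adjusted p = 0.0134, 0.0342 to 0.0674 with 1 library left out). EIF2S1, the alpha subunit that the kinases phosphorylate, stood at 112 and 115 TPM in NC against 106 and 94.4 TPM under the sh-ZNF217 label (−0.18, adjusted p = 0.147). EIF2S3, the gamma subunit that binds the initiator tRNA and GTP, stood at 229.8 and 222 TPM in NC against 215 and 207 TPM under the sh-ZNF217 label (−0.10, adjusted p = 0.248). Both had sh-ZNF217 libraries below NC without passing the test, and the low copy EIF2S3B, which shares 8.25% of its windows with EIF2S3, overlapped between groups. The ratio of EIF2S2 to EIF2S3 was 0.719 and 0.760 in NC against 0.613 and 0.606 under the sh-ZNF217 label.

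Of the 5 eIF2B genes, 2 were lower (7.11% of all genes). EIF2B3 (ENSG00000070785, chr1:44850522-44986722, GRCh38, minus strand), the gamma subunit of the catalytic part, had the largest decrease of all 50 genes. It stood at 67.3 and 64.0 TPM in NC against 47.5 and 41.3 TPM under the sh-ZNF217 label and fell by 32.4%, which is −0.56 ± 0.09 (SE) on the log2 scale (limma adjusted p = 0.0160). Without the second library labelled sh-ZNF217 the log2 fold change was −0.46 and the adjusted p 0.0631, so its call rests in part on that library, and the other 3 omissions left the adjusted p at 0.029 or above and below 0.05. EIF2B1, the regulatory alpha subunit, stood at 73.0 and 78.4 TPM in NC against 62.6 and 59.5 TPM under the sh-ZNF217 label (−0.31, limma adjusted p = 0.0394, 0.0641 to 0.142 with 1 library left out). Its exons overlap DDX55 and GTF2H3 on the other strand, and those of EIF2B3 a pseudogene, CCNB1IP1P1.

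The remaining eIF2B genes overlapped between the groups. EIF2B5, the catalytic epsilon subunit, stood at 75.9 and 73.5 TPM in NC against 75.4 and 73.3 TPM under the sh-ZNF217 label (log2 fold change −0.01, 95% interval −0.16 to 0.14). EIF2B4 and EIF2B2 had log2 fold changes of 0.00 and −0.17, EIF2B2 at a low mean of 6.77 TPM in NC. Relative to EIF2B5 in the same library, EIF2B3 was 0.887 and 0.870 in NC against 0.630 and 0.563 under the sh-ZNF217 label, and EIF2B1 was 0.962 and 1.07 in NC against 0.830 and 0.811 under the sh-ZNF217 label. EIF2A and EIF2D, which can deliver initiator tRNA in place of eIF2, overlapped between groups, EIF2A at 204 and 200.1 TPM in NC against 206 and 194 TPM under the sh-ZNF217 label.

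Of the 6 genes grouped by name with eIF1, eIF1A, eIF5 and eIF5B, 2 were lower (7.11% of all genes). So few genes cannot be read against that share. EIF1AX, the X-linked gene of eIF1A, which closes the decoding site around the initiator tRNA, stood at 85.9 and 81.3 TPM in NC against 70.4 and 68.9 TPM under the sh-ZNF217 label (log2 fold change −0.26, limma adjusted p = 0.0451, 0.0798 to 0.169 with 1 library left out). EIF1AD carries an eIF1A-like domain and is in the group by its name, not by a known role in start-codon selection. It stood at 47.1 and 42.3 TPM in NC against 35.2 and 34.4 TPM under the sh-ZNF217 label (limma adjusted p = 0.0415, log2 fold change −0.35, or −0.43 to −0.28 with 1 library left out). Both were separate between groups by a small margin. EIF1, the gatekeeper of start-codon choice and the most abundant of these mRNAs, stood at 283 and 264 TPM in NC against 279 and 280.4 TPM under the sh-ZNF217 label (0.03, 95% interval −0.10 to 0.17). EIF1B overlapped too, EIF5 had a log2 fold change of −0.06, and EIF5B stood at 101 and 111 TPM in NC against 92.0 and 86.0 TPM under the sh-ZNF217 label (−0.25, limma adjusted p = 0.0679).

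Of the 3 eIF4A genes 1, EIF4A3, was lower at adjusted p below 0.05 (7.11% of all genes were), and no eIF4E, eIF4G, eIF4B or eIF4H gene passed. A count of 1 among so few genes cannot be read against that share. EIF4A1, the main helicase that unwinds the leader of an mRNA, stood at 887 and 881 TPM in NC against 771 and 798 TPM under the sh-ZNF217 label, with a log2 fold change of −0.17 and a limma adjusted p of 0.0517, just outside the threshold. EIF4A2, its close relative, stood at 187 and 203 TPM in NC against 220.3 and 206 TPM under the sh-ZNF217 label (0.13, adjusted p = 0.222), so the ratio of EIF4A2 to EIF4A1 was 0.211 and 0.230 in NC against 0.286 and 0.259 under the sh-ZNF217 label. EIF4A3, a helicase of the same family that serves in the exon junction complex, stood at 204 and 194 TPM in NC against 164 and 173 TPM under the sh-ZNF217 label and was the last gene inside the threshold (−0.24, limma adjusted p = 0.0478, 0.0727 to 0.168 with 1 library left out). Exons of EIF4A1 overlap a readthrough transcript with SENP3 on the same strand.

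EIF4E, the cap-binding protein itself, stood at 34.1 and 36.6 TPM in NC against 29.2 and 25.8 TPM under the sh-ZNF217 label (log2 fold change −0.35, limma adjusted p = 0.0578), with no overlap between groups. EIF4E2, a relative that binds the cap without assembling the complex, stood at 93.3 and 93.4 TPM in NC against 84.5 and 88.0 TPM under the sh-ZNF217 label (−0.11, adjusted p = 0.231), and EIF4E3 was a scarce mRNA with a mean of 5.84 TPM in NC and 7.37 TPM in the others. The eIF4G scaffolds summed to 962 and 1008 TPM in NC against 966 and 1002 TPM under the sh-ZNF217 label, which overlapped between groups. Within them, EIF4G1 had a log2 fold change of −0.09 and EIF4G3 of −0.30 (limma adjusted p = 0.0679), while EIF4G2, a shortened scaffold that lacks the eIF4E-binding part and the most abundant of the 3, stood at 571 and 580.0 TPM in NC against 599 and 616 TPM under the sh-ZNF217 label (0.08, adjusted p = 0.280). EIF4H, a helper of the helicase, stood at 339 and 325 TPM in NC against 303 and 315 TPM under the sh-ZNF217 label (−0.10, adjusted p = 0.231), and EIF4B overlapped between groups.

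The eIF4E-binding proteins did not move as one. EIF4EBP1, which sequesters eIF4E until mTOR phosphorylates it, stood at 260.0 and 241 TPM in NC against 198 and 202 TPM under the sh-ZNF217 label, or −0.32 ± 0.06 in log2 units (limma adjusted p = 0.0223, 0.0257 to 0.0972 with 1 library left out). EIF4EBP2, its paralog, stood at 70.5 and 69.9 TPM in NC against 81.4 and 76.3 TPM under the sh-ZNF217 label (0.16, adjusted p = 0.136), with both libraries labelled sh-ZNF217 above NC. The ratio of EIF4EBP2 to EIF4EBP1 was 0.271 and 0.290 in NC against 0.410 and 0.378 under the sh-ZNF217 label, separate between groups. The ratio of EIF4EBP1 to EIF4E was 7.63 and 6.59 in NC against 6.78 and 7.83 under the sh-ZNF217 label, which overlapped. EIF4EBP3, whose exons overlap a readthrough transcript with ANKHD1, was between 1.24 and 3.84 TPM in all 4 libraries, and EIF4ENIF1, which carries eIF4E into the nucleus, overlapped between groups.

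**Figure D3:**
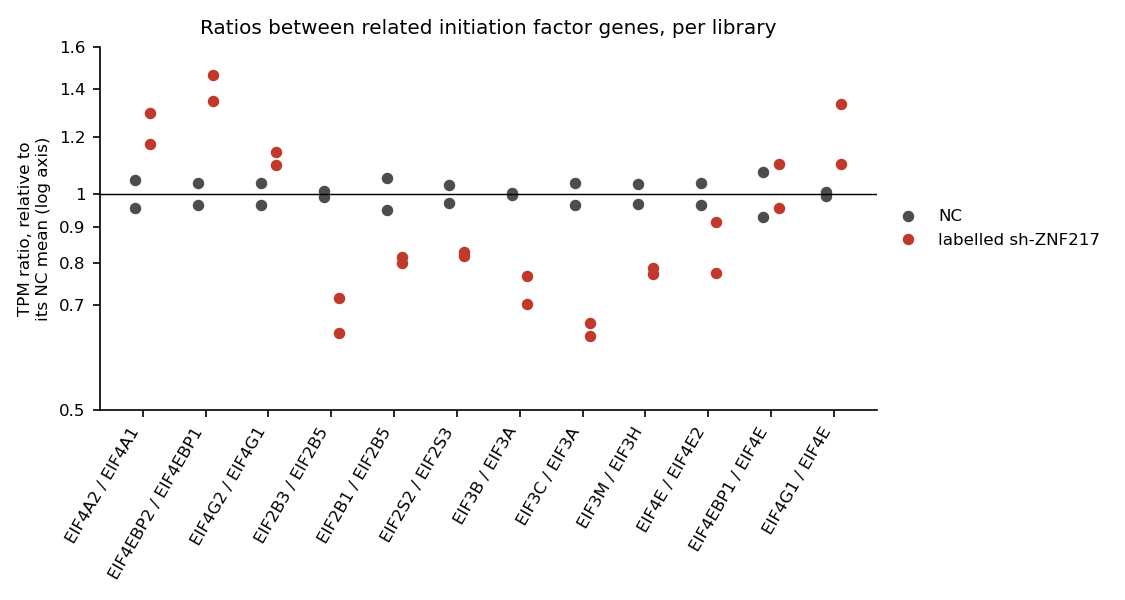
Ratio of the TPM of related initiation factor genes within each library (vertical log axis), divided by its NC mean, with a point for each of the 4 libraries. The NC and sh-ZNF217 points are separate in most pairs, EIF3C to EIF3A and EIF2B3 to EIF2B5 below 1 and EIF4EBP2 to EIF4EBP1 above 1, and they overlap for EIF4EBP1 to EIF4E.

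EIF5A, the most abundant mRNA of all 50 genes, encodes the factor with the amino acid hypusine that helps the ribosome through stalling peptide bonds. It stood at 1073 and 1012 TPM in NC against 806 and 837 TPM under the sh-ZNF217 label and fell by 21.2% (log2 fold change −0.34 ± 0.05, limma adjusted p = 0.0136, 0.0150 to 0.0787 with 1 library left out). In TPM this was the largest decrease of any member. EIF5AL1, an intronless copy that shares 3.83% of its windows with EIF5A, had a log2 fold change of −0.27 (adjusted p = 0.213) at a mean of 8.62 TPM in NC, and the scarce paralog EIF5A2 one of 0.31 (adjusted p = 0.318). Exons of EIF5A overlap GPS2 on the other strand. EIF6, which keeps the large subunit apart from the small one, stood at 144 and 138 TPM in NC against 129 and 135 TPM under the sh-ZNF217 label (−0.09, adjusted p = 0.310).

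**Figure D4:**
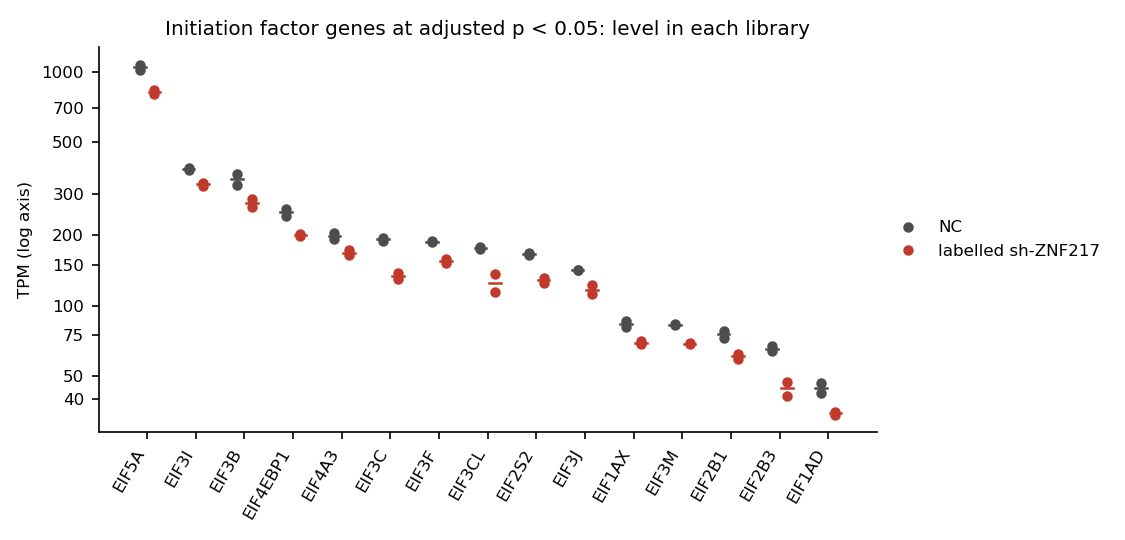
TPM (vertical log axis) in each of the 4 libraries of the 15 initiation factor genes with a limma adjusted p below 0.05, ordered by NC mean, with short bars at the group means. The points of the groups are separate in all 15 genes, and the gap is widest for EIF2B3, EIF3C and EIF3CL.

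The number of initiation factor genes that passed changed with each library left out. It was 5 without the first NC library (3.21% of all genes), 6 without the second (4.24%), 3 without the first library labelled sh-ZNF217 (1.31%) and 1 without the second (1.31%). EIF2B3 passed in 3 of these 4 fits, EIF5A and EIF2S2 in both that left out an NC library. The log2 fold change of all 15 genes was below 0 in each of them. With limma's moderation set to be neither trended nor robust, 0 of the 50 genes were lower at adjusted p below 0.05 (1.12% of all genes) and 17 at an unadjusted p below 0.05 (12.8% of all genes).

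Other genes of translation were compared with the same fit, from lists made with earlier results of these data known. Of 26 regulators of initiation, 2 were lower and 7 higher at adjusted p below 0.05, against 7.11% lower and 9.77% higher over all genes, so that the number lower was near the background, with a median log2 fold change of 0.07. DDIT4, an inhibitor of mTOR signalling, stood at 15.2 and 11.5 TPM in NC against 35.9 and 32.6 TPM under the sh-ZNF217 label (1.31, limma adjusted p = 0.00725, 0.00293 to 0.0528 with 1 library left out). PPP1R15A, the stress-induced subunit of the phosphatase that reverses eIF2 phosphorylation, stood at 85.2 and 89.3 TPM in NC against 141 and 162 TPM under the sh-ZNF217 label (0.79, limma adjusted p = 0.00615, 0.00977 to 0.0370 with 1 library left out). These were the 2 genes of the list above the fold minimum. SESN2, TSC1, MKNK1, RHEB and PPP1R15B rose by less (0.50, 0.43, 0.31, 0.27 and 0.26). MLST8 was lower (−0.34, limma adjusted p = 0.0389). ATF4, the transcription factor of the integrated stress response, stood at 360.1 and 383 TPM in NC against 277 and 306 TPM under the sh-ZNF217 label (−0.35, limma adjusted p = 0.0260, 0.0396 to 0.0996 with 1 library left out). None of the eIF2 kinases EIF2AK1, EIF2AK2, EIF2AK3 and EIF2AK4 passed the test (adjusted p of 0.322 or more).

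The other factors that act beside the initiation factors were lower in small numbers, to be read against 7.11% lower and 9.77% higher over all genes, and 18.9% higher at an unadjusted p below 0.05. These lists are too short to set their counts of 1 to 3 apart from those shares. Of 19 further cap and small-subunit factors tested, 2 were lower and 0 higher (0 higher at an unadjusted p below 0.05 as well), with a median of −0.08. They were BZW2, an eIF5 mimic, at 195 and 180.3 TPM in NC against 148 and 126 TPM under the sh-ZNF217 label (−0.46, limma adjusted p = 0.0276, 0.0397 to 0.0841 with 1 library left out), and PABPC4, a poly(A)-binding protein (−0.24, adjusted p = 0.0307). Of 13 elongation and termination factors, 3 were lower and 0 higher (2 at an unadjusted p below 0.05), with a median of −0.10. EEF1E1, a scaffold protein of the multi-synthetase complex, stood at 50.3 and 50.7 TPM in NC against 27.5 and 36.5 TPM under the sh-ZNF217 label (−0.66, limma adjusted p = 0.0306, 0.0339 to 0.0925 with 1 library left out), and EEF1B2 and GSPT1, the exchange factor of eEF1A and the release factor eRF3a, had log2 fold changes of −0.41 and −0.29. Of 10 mitochondrial translation factors, 1, the elongation factor gene TSFM, was lower (−0.34, adjusted p = 0.0388), 0 were higher (2 at an unadjusted p below 0.05), and the median was −0.16.

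**Figure D5:**
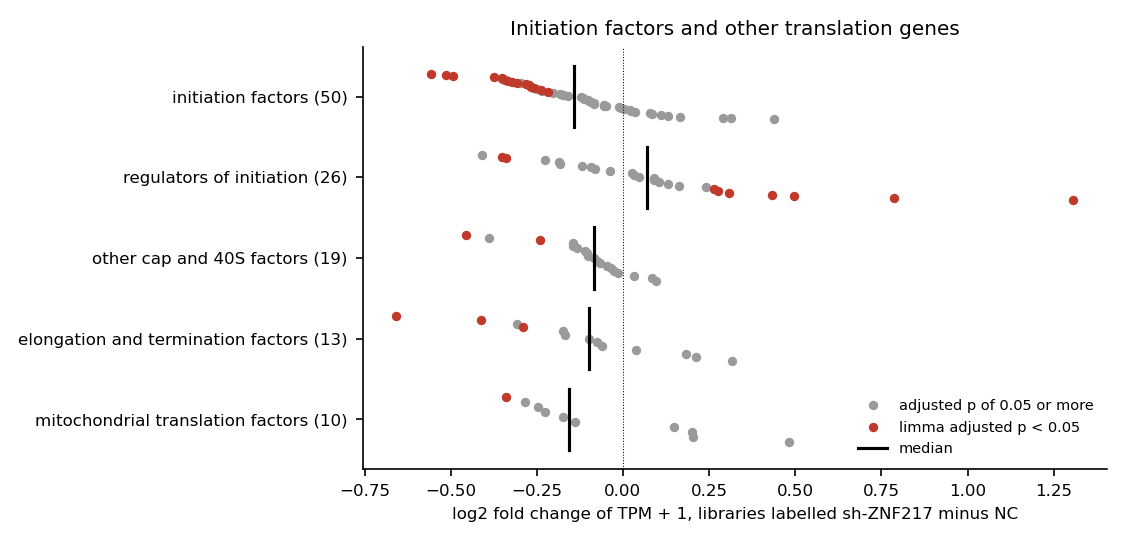
Log2 fold change of TPM + 1 (horizontal axis, libraries labelled sh-ZNF217 minus NC) of the initiation factor genes and of 4 other lists of translation genes, with a point for each gene, red at a limma adjusted p below 0.05, and a black bar at the median. The median is above 0 for the regulators of initiation and below 0 for the initiation factors and the other 3 lists.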

How the data were processed

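RNA from 4 U937 libraries, 2 NC and 2 labelled sh-ZNF217, was sequenced by the authors, who filtered the reads and aligned them to hg38 with HISAT2 2.0.5, as the submitters' processing notes and the study's methods give it. The authors deposited 1 table of TPM values for 17656 Ensembl gene IDs. The study's methods name another per-million measure and a count model, but the columns sum to 998932 to 999282, and the short gene MT-ATP8 is listed at a level near that of MT-ATP6, so the values were taken as TPM, which a count model cannot use. The program that made them, its annotation release and its use of strand were not given in the sources used here. Column names hold NC or ZNF with the library's number, and their remaining parts were not explained.

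GENCODE 44 named 16143 of the IDs. Genes with at least 1 TPM in at least 2 libraries (14582) were tested on log2(TPM + 1) with limma 3.58.1 in R 4.3.3 (trended, robust moderation, group as the only term), with Benjamini-Hochberg adjustment over all genes tested. Fold changes on this scale understate those of low genes. Genes were named at an adjusted p below 0.05, and called when the log2 fold change also passed 0.5 in size. The members and lists were chosen with earlier results of these data known. Values in every library are given for members at adjusted p below 0.05, for the most abundant member of each role group and for the 3 largest fold changes, with others described by range or named after their values were seen. In the other lists up to 6 genes per list at adjusted p below 0.05 were eligible to be named. RHEB, PPP1R15B and MLST8 were named beyond that limit, so that all regulators of initiation that passed are given. The erythroid, epithelial and fibroblast marker genes listed were not among the 17656 genes, so their levels were not analysed here. The T and B cell markers are not reported here.

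Alternatives were another pseudocount, other filters, median-of-ratios scaling, leaving out the mitochondrially encoded genes, protein-coding genes alone, moderation neither trended nor robust, the replicate number as a block, each library left out, and, added after seeing the data, copies summed. The copies summed were EIF3CL with EIF3C, EIF5AL1 with EIF5A and EIF2S3B with EIF2S3, of which only EIF3CL shared most of its windows. Promoter windows came from RefSeq on GRCh38.p14. Figures were drawn in Python 3.11.15 with matplotlib 3.10.9. The scripts were tested on simulated data.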

Additional observations from a re-analysis of the deposited data

How the results depend on the processing

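The number of initiation factor genes called lower with the fold minimum was 2. It was 1 without the mitochondrially encoded genes, 0 with moderation neither trended nor robust, and 1 to 2 with each library left out. Without the mitochondrially encoded genes EIF3C fell short of the fold minimum (a log2 fold change of −0.48, adjusted p 0.00827), as it did without the second NC library (−0.49). Without the second library labelled sh-ZNF217 EIF2B3 dropped out (−0.46, adjusted p 0.0631), and without the first the 2 genes called were EIF2B3 and EIF3CL. At adjusted p alone the number lower was 15, and it was 8 without the mitochondrially encoded genes, 0 with moderation neither trended nor robust (17 at an unadjusted p below 0.05), and 1 to 6 with a library left out. The count was 13 to 19 under the other pseudocount, filters, median-of-ratios scaling and protein-coding genes alone, where 5.06 to 12% of all genes were lower. The number higher stayed at 0 in all settings that kept every library, against 9.77% of all genes in the main fit. With EIF3CL, EIF5AL1 and EIF2S3B added to EIF3C, EIF5A and EIF2S3, the number lower was 14 of 47, against 7.11% of all genes. The median log2 fold change of −0.14 was −0.16 with the 5 TPM filter, −0.17 with median-of-ratios scaling, −0.11 without the mitochondrially encoded genes, −0.12 with copies summed, and −0.16 to −0.13 with a library left out. The number of other translation genes at adjusted p below 0.05 was 15, and it was 2 with moderation neither trended nor robust and 3 to 5 with a library left out, where the counts of 5 include genes from outside the 15 (DOHH and EEF1D without the second NC library, ABCF1 and TPT1 without the second library labelled sh-ZNF217). The cause of these changes was not tested, and leaving a library out changes both the number of libraries and which of them remain.

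The replicate numbers pair the samples only by number: deviations of same-numbered libraries from their group means correlated at −0.00534. With the replicate number as a block, 7 initiation factor genes were lower at adjusted p below 0.05 (4.77% of all genes). Of the other translation genes 6 passed, DDIT4 and PPP1R15A higher (6.79% of all genes) and the rest lower.

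Several genes changed sign. Many of them were near 0, but EIF2B2 and EIF2S3B had log2 fold changes of −0.17 and −0.12 in the main fit. With median-of-ratios scaling the log2 fold changes were −0.0101 for EIF1B, −0.0278 for EIF2B4 and −0.0116 for EIF4ENIF1, and without the mitochondrially encoded genes they were 0.0237 for EIF2A and 0.0292 for EIF2B5. With each library left out they ranged from −0.0171 to 0.0848 for EIF1, from −0.0462 to 0.0922 for EIF1B, from −0.0543 to 0.0294 for EIF2A, from −0.398 to 0.0492 for EIF2B2, from −0.0839 to 0.0929 for EIF2B4, from −0.0287 to 0.0154 for EIF2B5, from −0.122 to 0.0144 for EIF2D, from −0.268 to 0.0365 for EIF2S3B, from −0.175 to 0.0775 for EIF4B and from −0.00762 to 0.0477 for EIF4ENIF1. Depth could not be weighed, since TPM keeps none, and 2 libraries a group limit every test.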
